A study of Mus musculus with 6 samples.

Results

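The endoplasmic reticulum (ER) stress response genes examined here are *Atf4*, *Atf6*, *Xbp1*, *Ddit3*, *Trib3*, *Ero1l*, *Herpud1*, *Sdf2l1*, *Edem1* and *Chac1*, 10 genes picked by name for their place in one pathway. Every probe whose gene symbol in the deposited table equals one of these names was taken, which gave 14 probes of the 25697 on the array for 8 of the genes, among 18138 gene symbols in all. *Atf6* and *Sdf2l1* had no probe under these symbols, so no value can be given for them. RNA came from the cochlea, the hearing organ of the inner ear, of C57BL/6 mice (C57BL/6J in the study's methods) aged 12 months, 3 wild type (WT) and 3 *Cmah*-null. *Cmah*-null mice carry a knockout allele of the enzyme that converts the sialic acid Neu5Ac to Neu5Gc, and the study used them as a model of age-related hearing loss. No mouse received a treatment. Sex is not given in the sample records, and nothing there says that each sample is 1 mouse, so the p-values measure the spread between these samples only.

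When unfolded proteins gather in the ER, 3 sensors in its membrane, PERK, IRE1 and ATF6, start the unfolded protein response. PERK slows translation by phosphorylating eIF2alpha, while the mRNA of the transcription factor ATF4 is then translated more, and ATF4 induces the transcription factor CHOP (*Ddit3*) together with *Trib3* and *Chac1*. IRE1 splices *Xbp1* mRNA into the form that encodes the active factor XBP1, and ATF6 is cut at the Golgi into a factor. XBP1 and ATF6 raise chaperones and the genes of ER-associated degradation (ERAD), such as *Herpud1* and *Edem1*. Much of this control acts on translation, splicing or cleavage, which an mRNA array does not read.

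Some probe sequences, from the deposited table, are shown because they decide which part of an mRNA each value reports. The table gives *Atf4* a probe that starts at position 553 of its reference transcript and one that starts at position 1570. The end of the first crosses the start codon, in capitals, and the second lies within the coding sequence.
Atf4 ILMN_1223734, last 30 bases: gaatccagcaaagccccacaacATGaccga
Atf4 ILMN_2642681: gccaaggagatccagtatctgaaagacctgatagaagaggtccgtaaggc

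Both *Ddit3* probes, at positions 395 and 513, lie within the coding sequence and are shown whole, with no part in capitals.
Ddit3 ILMN_2652909: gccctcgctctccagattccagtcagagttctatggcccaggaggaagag
Ddit3 ILMN_2927373: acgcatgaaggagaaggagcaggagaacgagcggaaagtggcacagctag

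The *Xbp1* probe starts at position 1625, downstream of the stretch that IRE1 removes, so it does not tell the spliced mRNA from the unspliced one. It begins as follows.
Xbp1 ILMN_2431237, first 30 bases: ctgcttcccaggtttcgtaacctgaggggg

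The 2 *Herpud1* probes start at positions 1599 and 1777, and begin as follows.
Herpud1 ILMN_2790246, first 30 bases: gtgtgcatgtgtgctctacatggaagtcat
Herpud1 ILMN_2790241, first 30 bases: tgcagtgctttcctttaaaccgagggtggc

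Between 13873 and 15223 probes were detected on an array (detection p under 0.05 against its negative controls), and the number of arrays limits the precision. *Cmah*-null replicate 3 stood apart from the others, since its log2 differences from each other array had an SD of 0.56 to 0.64, compared with 0.31 to 0.44 for the pairs that leave it out. The exception was the pair of *Cmah*-null replicates 1 and 2, which differed by 0.13 only and may not be independent. The arrays also fell into sets by the median number of beads per probe, 32 to 34 for WT replicate 1 with *Cmah*-null replicates 1 and 2, and 38 to 39 for WT replicates 2 and 3 with *Cmah*-null replicate 3. The *Cmah* probe was detected on 1 WT and 2 *Cmah*-null arrays, at 7.27 to 7.87 and 7.27 to 7.98 log2 signal, and so does not check the genotype labels. Of the hair cell markers, *Pou4f3* and *Slc26a5* were detected on no array, and 4 of 8 were detected on all 6, as were 7 of 9 markers of other cochlear cells. The summed signal of the brown fat markers, on a log2 scale, was 15.16 to 15.81 in WT and 12.92 to 14.44 in *Cmah*-null mice, with all 6 genes lower. Of these 6 genes, 4 were detected on all 6 arrays and *Dio2* on none, so its direction carries no weight. The summed signals of the cartilage (12.49 to 12.87 against 13.08 to 14.21), hair cell (10.61 to 10.83 against 10.85 to 10.94) and plasma and B cell markers (11.03 to 11.33 against 10.93 to 11.01) also did not overlap between the groups. For the hair cell and the plasma and B cell markers the ranges nearly met. Single genes of these lists went both ways, so the sums do not stand for each gene. Cartilage had 5 higher and 2 lower (median log2 fold change 0.02), and hair cell 6 and 2 (0.09). Plasma and B cell markers had 3 higher and 6 lower (-0.06). Only 3 of 7 cartilage and 5 of 9 plasma and B cell markers were detected on all 6 arrays. *Matn3* of the cartilage list and *Igj*, *Tnfrsf17* and *Prdm1* of the plasma and B cell list were detected on none. These sums and counts include such genes and do not measure a difference in cell types. The other lists overlapped. They were other cochlear cells (13.60 to 14.72 in WT and 14.38 to 14.43 in *Cmah*-null mice), neuron (14.67 to 15.25 and 14.85 to 14.91), skeletal muscle (17.21 to 18.08 and 17.21 to 17.38, with 10 of 10 genes lower), fat (14.70 to 15.81 and 14.12 to 15.64), bone (14.90 to 17.14 and 15.50 to 15.54, with 9 of 9 genes lower), blood and marrow (16.55 to 17.04 and 16.51 to 16.74) and epidermis (14.81 to 16.77 and 16.53 to 16.71, with 4 of 4 genes higher). Of the skeletal muscle markers 9 of 10 were detected on all 6 arrays and *Myh7* on none, and of the bone markers 8 of 9. The counts of lower genes include those not detected. The summed epidermis signal was 14.81, 15.31 and 16.77 in WT replicates 1 to 3, so that WT replicate 3 lay with the *Cmah*-null arrays. This was not particular to the epidermis. The summed signal in WT replicates 1 to 3 was 18.0, 18.08 and 17.21 for skeletal muscle and 16.9, 17.14 and 14.9 for bone. In both, WT replicate 3 was the WT array nearest to the *Cmah*-null arrays. The part of these tissues in the values below was not tested, and fewer cells of a type and less RNA per cell cannot be told apart in such samples.

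To determine whether the ER stress response genes differed between *Cmah*-null and WT cochleae, the log2 signals were compared with limma, with Benjamini-Hochberg adjustment over all 25697 probes. Of the 14 probes, 9 were detected on all arrays of at least 1 group, and in fact on all 6, and these belong to *Atf4*, *Xbp1*, *Ddit3*, *Trib3*, *Herpud1* and *Chac1*. None of the 14 had an adjusted p under 0.05, where 0% of all probes had one, and the smallest adjusted p among the 9 was 0.611. None reached 1.5-fold with an unadjusted p under 0.05, the rule of the study, in either direction, where 1.30% of all probes did so upward and 1.41% downward. The unadjusted p of the 9 was 0.0668 or more, where 8.56% of all probes were under 0.05, and 13.3% of those detected on the 6 arrays. The 2 groups overlapped in every one of the 9, while they did not in 9.11% of all probes in the higher direction and 7.33% in the lower. Among the probes detected on the 6 arrays they did not overlap in 19.3%, either direction. Of the 9 probes, 5 had a higher mean and 4 a lower one in *Cmah*-null mice, and their log2 fold changes had a median of 0.24, compared with 6588 higher, 5822 lower and a median of 0.03 among the 12410 probes detected on the 6 arrays. Without *Cmah*-null replicate 3 the median of the 9 was 0.07. The standard error of the beads was 0.03 to 0.07 log2 units for a probe on an array, while the SD over the 3 arrays of a group ranged from 0.04 to 0.69.

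**Figure D1:**
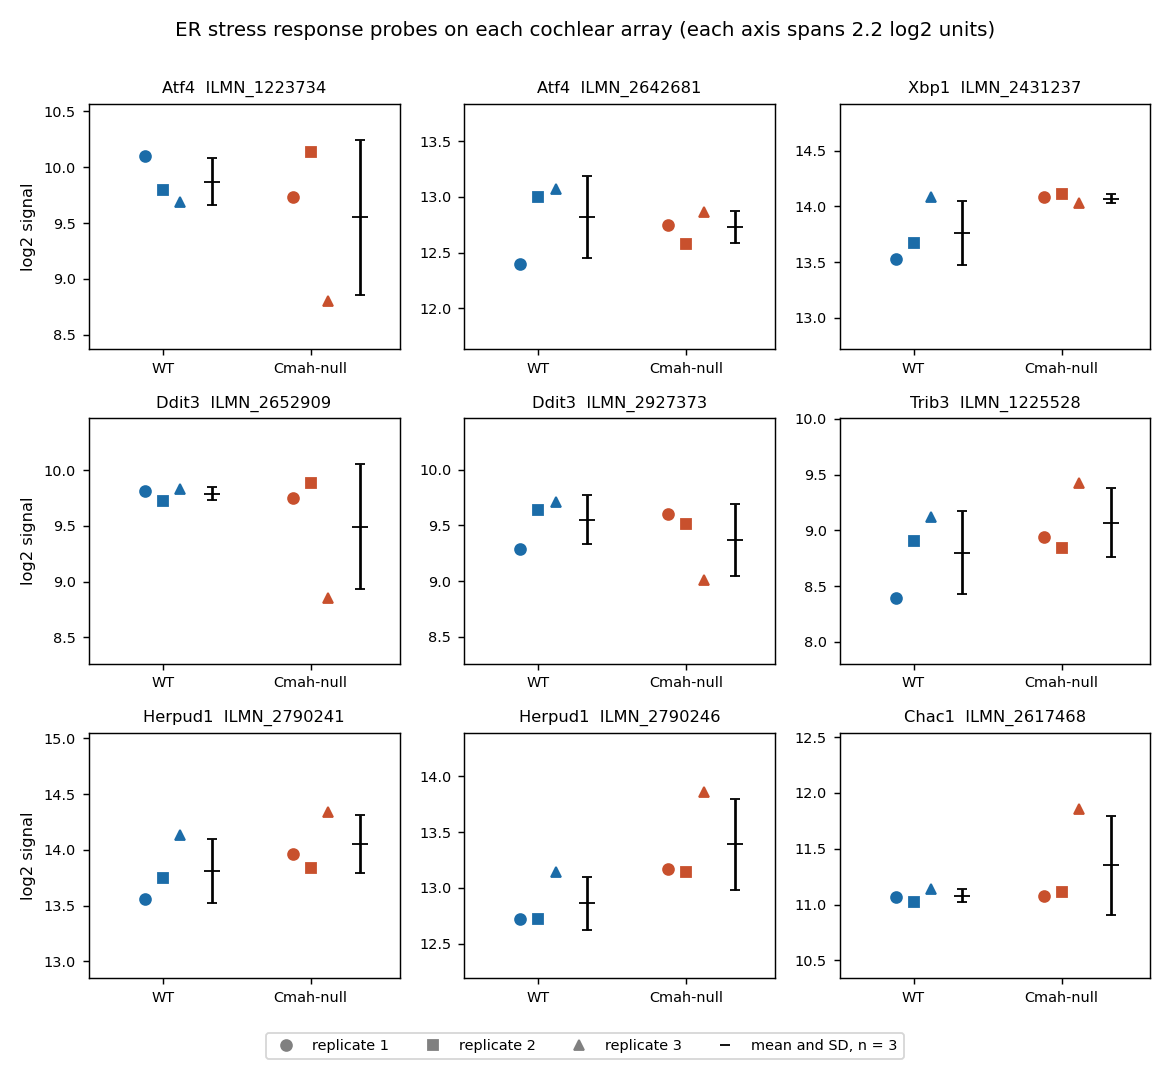
Log2 signal (vertical axis) of the 9 detected probes on each of the 3 WT (blue) and 3 *Cmah*-null (red) arrays, with the mean and SD of each group in black. The groups overlap in each panel, and *Cmah*-null replicate 3 (triangle) is the lowest array for *Ddit3* and the highest for *Herpud1*, *Trib3* and *Chac1*.

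The transcription factors of the response were examined first. *Atf4*, the main effector of the PERK arm, lies on chromosome 15 (band 15qE1). Its start codon probe, ILMN_1223734, had log2 signals of 10.10, 9.80 and 9.69 in WT replicates 1 to 3 and of 9.73, 10.14 and 8.80 in *Cmah*-null replicates 1 to 3. *Cmah*-null replicate 3 was the lowest of the 6, while the other *Cmah*-null arrays lay within or just above the WT range. Its log2 fold change was -0.31 (95% interval -1.17 to 0.55, adjusted p = 0.825 in limma), and 0.07 without *Cmah*-null replicate 3. The coding probe, ILMN_2642681, had 12.40, 13.00 and 13.07 in WT and 12.75, 12.58 and 12.86 in *Cmah*-null mice, so that every *Cmah*-null array lay inside the WT range. Its log2 fold change was -0.09 (95% interval -0.58 to 0.40, adjusted p = 0.914 in limma). Within the sets of arrays with fewer and with more beads the first probe differed by -0.17 and -0.95 and the second by 0.27 and -0.18. The probes ranked the WT arrays in opposite order, and only the first set *Cmah*-null replicate 3 apart, so they disagree on which samples were high. Scaling the arrays to the same median turned both log2 fold changes positive, to 0.05 and 0.42, while it moved the median of the probes detected on the 6 arrays from 0.03 to 0.30. Relative to that median the probes were then at -0.25 and 0.12.

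*Xbp1*, the target of IRE1, lies on chromosome 11 (band 11qA1). Its probe had log2 signals of 13.53, 13.67 and 14.08 in WT and of 14.08, 14.11 and 14.03 in *Cmah*-null mice. The *Cmah*-null arrays were close together (SD 0.04, n = 3), and WT replicate 3 lay among them, while the other WT arrays were lower (SD 0.29, n = 3). The log2 fold change was 0.31 (95% interval -0.06 to 0.69), a fold of 1.24 with an upper bound of 1.61, and the adjusted p in limma was 0.634. It was 0.33 without *Cmah*-null replicate 3. Within the set of arrays with fewer beads the difference was 0.57, and within the other set it was 0.15. Without WT replicate 1 it was 0.20 (unadjusted p = 0.233 in limma), and without WT replicate 3 it was 0.47 (unadjusted p = 0.00382 and adjusted p = 0.281 in limma).

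*Ddit3*, which encodes the apoptosis-linked factor CHOP, lies on chromosome 10 (band 10qD3). Probe ILMN_2652909 had log2 signals of 9.81, 9.72 and 9.83 in WT and of 9.75, 9.88 and 8.85 in *Cmah*-null mice. *Cmah*-null replicate 3 was far below the other arrays, which lay close together. Probe ILMN_2927373 had 9.29, 9.64 and 9.71 in WT and 9.60, 9.51 and 9.01 in *Cmah*-null mice, again with the lowest value on *Cmah*-null replicate 3. The log2 fold changes were -0.29 (95% interval -0.97 to 0.39, adjusted p = 0.791 in limma) and -0.17 (95% interval -0.66 to 0.31, adjusted p = 0.828 in limma). They were 0.03 and 0.01 without *Cmah*-null replicate 3, and 0.07 and 0.16 with arrays scaled to the same median. Relative to the median of the detected probes under that scaling, they were still lower, at -0.23 and -0.14. Within the set of arrays with more beads, where *Cmah*-null replicate 3 is the single *Cmah*-null array, the differences were -0.92 and -0.66, and within the other set they were 0.00 and 0.27.

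The targets of ATF4 and CHOP come next. *Chac1*, on chromosome 2 (band 2qE5), encodes an enzyme that breaks down glutathione. Its probe (ILMN_2617468, position 1467) had log2 signals of 11.07, 11.02 and 11.14 in WT and of 11.08, 11.11 and 11.86 in *Cmah*-null mice. *Cmah*-null replicate 3 was high and the other arrays of both groups could hardly be told apart. The log2 fold change was 0.28 (95% interval -0.27 to 0.82, adjusted p = 0.754 in limma) and fell to 0.02 without that array. Within the set of arrays with fewer beads, where that array is absent, the difference was 0.03, and within the other set it was 0.78. Thus the array with the lowest signal for CHOP mRNA had the highest for *Chac1*.

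*Trib3*, also on chromosome 2 (band 2qG3), encodes a pseudokinase that CHOP and ATF4 induce. Of its 3 probes only ILMN_1225528, at position 1960, was detected. It had log2 signals of 8.39, 8.90 and 9.12 in WT and of 8.94, 8.84 and 9.42 in *Cmah*-null mice, with the lowest value on WT replicate 1 and the highest on *Cmah*-null replicate 3. The log2 fold change was 0.26 (95% interval -0.33 to 0.86, adjusted p = 0.782 in limma), 0.09 without *Cmah*-null replicate 3 and 0.06 without WT replicate 1. With the set of arrays by number of beads as a block it was 0.46 (adjusted p = 0.140 in limma), and it was 0.50 within the set with fewer beads and 0.41 within the other. The other probes, ILMN_1252762 and ILMN_1244279, at positions 923 and 1523, were detected on no array, with log2 signals of 7.10 to 7.30 and 7.05 to 7.28. No fold is given for them.

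*Herpud1*, on chromosome 8 (band 8qC5), encodes a membrane protein of the ERAD machinery and had the smallest p of the members. Probe ILMN_2790246 had log2 signals of 12.72, 12.72 and 13.14 in WT and of 13.17, 13.14 and 13.86 in *Cmah*-null mice. The groups met at 13.14, the value of both WT replicate 3 and *Cmah*-null replicate 2, and *Cmah*-null replicate 3 lay above all others. The log2 fold change was 0.53 (95% interval -0.05 to 1.11), a fold of 1.44, with an unadjusted p of 0.0668 and an adjusted p of 0.611 in limma. Without *Cmah*-null replicate 3 it was 0.29 (adjusted p = 0.478 in limma). Over all alternatives the smallest adjusted p in limma was 0.0961, with arrays scaled to the same median. The difference was 0.43 within the set of arrays with fewer beads and 0.93 within the other.

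The second *Herpud1* probe, ILMN_2790241, had 13.56, 13.75 and 14.13 in WT and 13.96, 13.84 and 14.34 in *Cmah*-null mice. WT replicate 3 lay here above *Cmah*-null replicates 1 and 2, so that the overlap was wider than with the first probe. The log2 fold change was 0.24 (95% interval -0.25 to 0.73, adjusted p = 0.763 in limma), and 0.09 without *Cmah*-null replicate 3. It was 0.35 within the set with fewer beads and 0.40 within the other. With arrays scaled to the same median the *Herpud1* probes had 1.03 and 0.72, *Xbp1* had 0.77 and *Chac1* had 0.78, and these 4 of the 14 probes then met the rule of 1.5-fold with p, where 9.37% of all probes did so in that direction. That share includes undetected probes. Under that scaling 9878 of the 12410 probes detected on the 6 arrays had a higher mean in *Cmah*-null mice, so the share is not a like background for detected probes. Measured from the median of the detected probes under that scaling, *Herpud1* ILMN_2790246 was at 0.73, and it was at 0.50 with the deposited values.

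**Figure D2:**
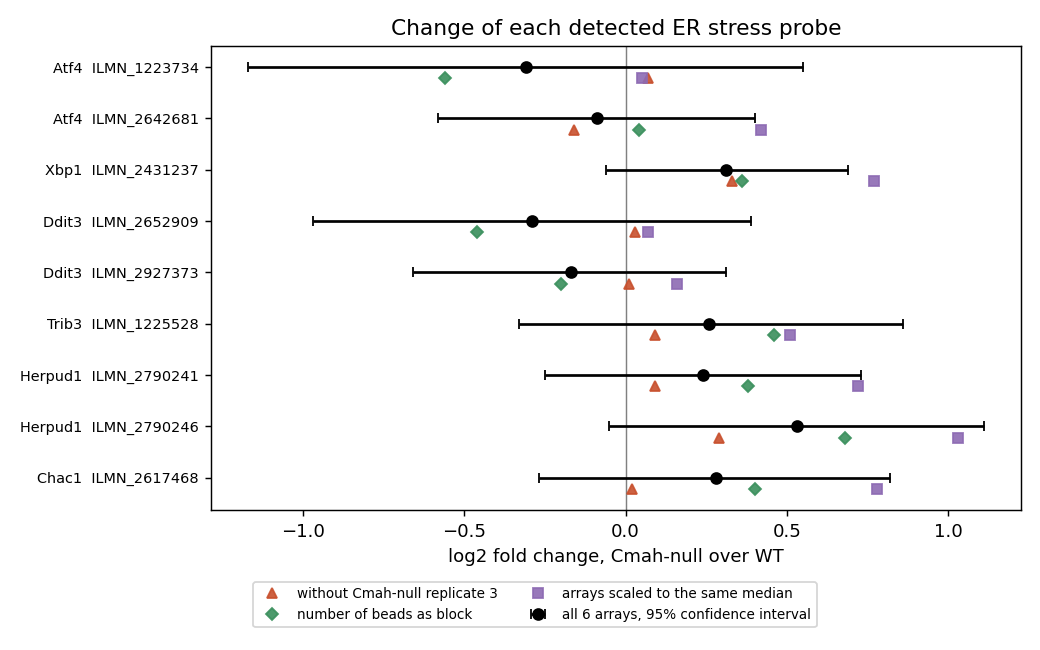
Log2 fold change of *Cmah*-null over WT (horizontal axis) for the 9 detected probes, with the 95% interval from limma (black) and the values without *Cmah*-null replicate 3, with the number of beads as a block and with arrays scaled to the same median. Every interval includes 0, and the values without *Cmah*-null replicate 3 lie between -0.16 and 0.33.

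*Ero1l*, now named *Ero1a*, encodes the oxidase that helps to form disulfide bonds in the ER, and *Edem1* encodes a protein that directs misfolded glycoproteins to ERAD. Neither was detected on all arrays of a group. The *Ero1l* probe (ILMN_2727376, chromosome 14) was detected on no array, with a detection p of 0.089 to 0.956. One *Edem1* probe (ILMN_1253171, chromosome 6) was also detected on none, with a detection p of 0.296 to 0.875. The other, ILMN_1244297, was detected on WT replicate 1 only, with a detection p of 0.0351 there and of 0.0664 to 0.439 elsewhere. Their log2 signals lay between 6.93 and 7.51, close to background, and no fold is given.

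**Figure D3:**
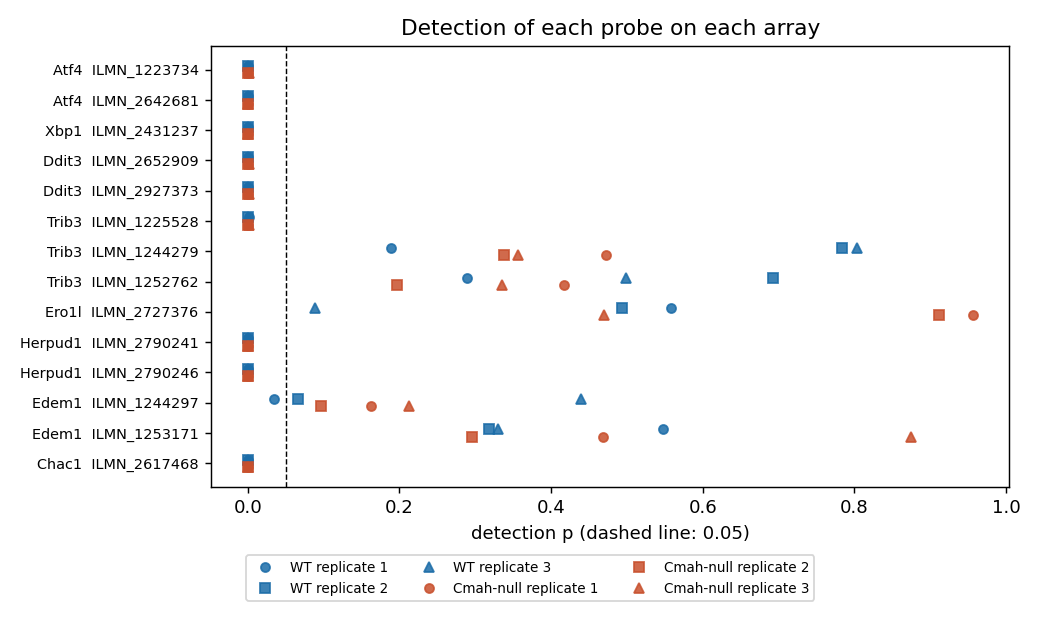
Detection p (horizontal axis) of the 14 probes on each array, with WT in blue and *Cmah*-null in red and a dashed line at 0.05. The 9 probes of the detected genes lie at or near 0 on each array, while the probes of *Ero1l* and *Edem1* and 2 of *Trib3* scatter up to 0.956.

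The factors of the response bind known elements in promoters, so the 250 bases before the start of transcription were searched in RefSeq (GRCm38.p6), which has an entry for 9 of the 10 genes, all but *Atf6*. The motifs searched on both strands were the ER stress element (ERSE, CCAAT and CCACG with 9 bases of any kind between them), the element ERSE-II (ATTGG and CCACG with 1 base between them), the unfolded protein response element (UPRE, TGACGTGG) and the element that C/EBP and ATF4 bind together (CARE, TGATGNAA). ERSE-II was found in *Herpud1*, where 0.0304% of the 32851 promoters hold it, and CARE in *Herpud1* and *Chac1*, where 3.45% of promoters hold it. ERSE (0.113% of promoters) and UPRE (0.563%) were found in none of the 9. The windows that hold the matches are shown with the matches in capitals, on the plus strand. Other member promoters held no match.
Herpud1, GRCm38.p6 chr8:94386289-94386398: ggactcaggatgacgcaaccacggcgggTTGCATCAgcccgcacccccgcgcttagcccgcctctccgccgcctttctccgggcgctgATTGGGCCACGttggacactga
Chac1, GRCm38.p6 chr2:119351032-119351071: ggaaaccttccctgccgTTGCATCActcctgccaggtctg

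In *Herpud1* the CARE match starts 112 bases before the transcription start, on the reverse strand, and the ERSE-II match 52 bases before it. In *Chac1* the CARE match starts 193 bases before it, on the reverse strand. These are matches of letters, and binding was not measured.

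Other genes of the pathway were taken from 5 lists of 113 genes in all, of which 103 were matched on the array. By the brightest probe of each gene, 80 were detected on all arrays of at least 1 group, 42 of them with a higher mean and 38 with a lower mean in *Cmah*-null mice. The 42 include *Fgf21* and *Spcs2*, each detected on 1 WT and 3 *Cmah*-null arrays. They passed the detection rule only through the *Cmah*-null group, where they are higher, so their direction is no support for a rise. The median log2 fold change of the 80 genes was 0.03. It was 0.01 for all probes that passed the same detection rule, and 0.03 for those detected on the 6 arrays. None of the 103 had an adjusted p under 0.05. Of the 103, 1 gene, *Slc7a3*, met the rule of 1.5-fold with p, where 1.30% of all probes did so upward and 1.41% downward, and 333 upward and 363 downward of the 13975 probes detected on all arrays of at least 1 group. An unadjusted p under 0.05 was seen in 5 of the 80 (6.25%), where 13.9% of all probes detected in this way had one, and the groups did not overlap in 11 (13.8%), where 20.2% did not. Neither count was therefore above its background. Both include *Sesn2*, which passed the detection rule only through WT, where it is higher.

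Among ATF4 and CHOP targets, 14 of 26 had a higher mean and 12 a lower one, with a median of 0.03, or -0.13 without *Cmah*-null replicate 3. The 14 include *Fgf21*, which passed the detection rule only through the *Cmah*-null group. *Slc7a3*, a transporter of cationic amino acids, had log2 signals of 7.73, 8.0 and 9.14 in WT and 9.29, 9.13 and 9.19 in *Cmah*-null mice. WT replicate 3 lay among the *Cmah*-null arrays. Its log2 fold change was 0.92 (standard error 0.37, unadjusted p = 0.0475 and adjusted p = 0.580 in limma), and the call was lost when WT replicate 1, WT replicate 2 or any *Cmah*-null array was left out. Without *Cmah*-null replicate 3 the log2 fold change was still 0.92, with an unadjusted p of 0.0781 in limma. The difference was 1.48 within the set of arrays with fewer beads and 0.62 within the other. *Sesn2*, a stress-induced regulator of mTORC1, had -0.37 with all *Cmah*-null arrays below the WT arrays, and *Vldlr*, a lipoprotein receptor, had -0.38 in the same manner (adjusted p of 0.549 and 0.563 in limma). The *Sesn2* signals were low, 7.70, 8.06 and 7.98 in WT and 7.39, 7.63 and 7.60 in *Cmah*-null mice. It was not detected on *Cmah*-null replicate 1 (detection p of 0.124). *Sesn2* thus passed the detection rule only through WT, where it is higher, and its lack of overlap is no support for a fall. *Nars*, an aminoacyl-tRNA synthetase, had -0.39, and *Cebpb*, a transcription factor, had 0.66, and these were -0.14 and 0.25 without *Cmah*-null replicate 3.

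Among ER chaperones and folding enzymes, 9 of 19 had a higher mean and 10 a lower one, with a median of -0.01, or 0.03 without *Cmah*-null replicate 3. *Creld2*, an ER protein known to be induced by ER stress, had log2 signals of 9.95, 10.07 and 10.31 in WT and 10.51, 10.45 and 10.56 in *Cmah*-null mice. The groups did not overlap, and *Cmah*-null replicate 3 was close to the other *Cmah*-null arrays. Its log2 fold change was 0.40 (standard error 0.11, unadjusted p = 0.0125 and adjusted p = 0.479 in limma), and 0.37 without *Cmah*-null replicate 3. *Sil1*, a nucleotide exchange factor of the chaperone BiP, had 0.39 (adjusted p = 0.569 in limma), also without overlap, and 0.25 without *Cmah*-null replicate 3. The largest falls by mean, in *Prdx4* (-0.71), a peroxiredoxin of the ER, and *Dnajc10* (-0.47), a disulfide reductase, were 0.02 and 0.01 without *Cmah*-null replicate 3. *Hspa5*, which encodes BiP, the classical marker of the response, was at 7.65, 8.22 and 8.42 in WT and at 7.88, 7.70 and 8.04 in *Cmah*-null mice. It is named here after its value was seen, and its log2 fold change was -0.22 (adjusted p = 0.800 in limma). The *Hspa5* probe was detected on all 6 arrays, with a detection p of up to 0.0163. Its signals were low, not far above those called close to background for *Ero1l* and *Edem1*. It is therefore a weak reading of BiP mRNA.

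Among genes of ERAD and of protein translocation into the ER, 9 of 22 had a higher mean and 13 a lower one. The median was -0.17, and 0.06 without *Cmah*-null replicate 3. The 9 include *Spcs2*, which passed the detection rule only through the *Cmah*-null group. *Sec61g*, a subunit of the translocation channel, had -0.88, and *Sec11c*, a subunit of the signal peptidase, had -0.69, while *Edem2* and *Syvn1*, both of ERAD, had 0.50 each. The unadjusted p of these 4 in limma was 0.146 or more, and without *Cmah*-null replicate 3 *Sec61g* was at -0.20, *Sec11c* at -0.40, *Edem2* at 0.19 and *Syvn1* at 0.04. *Cmah*-null replicate 3 had the highest of the 6 signals in 32 and the lowest in 30 of the 80 genes of all lists, where it had the highest in 36.6% and the lowest in 31.7% of the 12410 probes detected on the 6 arrays.

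Sensors and proximal regulators of the response had a higher mean in 8 of 11 genes, with a median of 0.17, and 0.05 without *Cmah*-null replicate 3. *Traf2*, an adaptor of IRE1, had 0.59 but 0.05 without that array, and *Creb3l2*, a membrane-bound transcription factor, had 0.49 and 0.19. *Bax*, a promoter of apoptosis, had -0.09 and *Nfe2l2*, a regulator of antioxidant genes, had -0.06. Of the eIF2alpha kinases other than PERK, *Eif2ak1* had 0.06. *Eif2ak2*, which encodes the interferon-induced kinase PKR, had log2 signals of 9.73, 10.27 and 10.04 in WT and of 11.01, 10.96 and 9.62 in *Cmah*-null mice. *Cmah*-null replicates 1 and 2 were the highest and replicate 3 the lowest of the 6. Its log2 fold change was 0.52 (adjusted p = 0.750 in limma), and 0.97 without *Cmah*-null replicate 3.

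**Figure D4:**
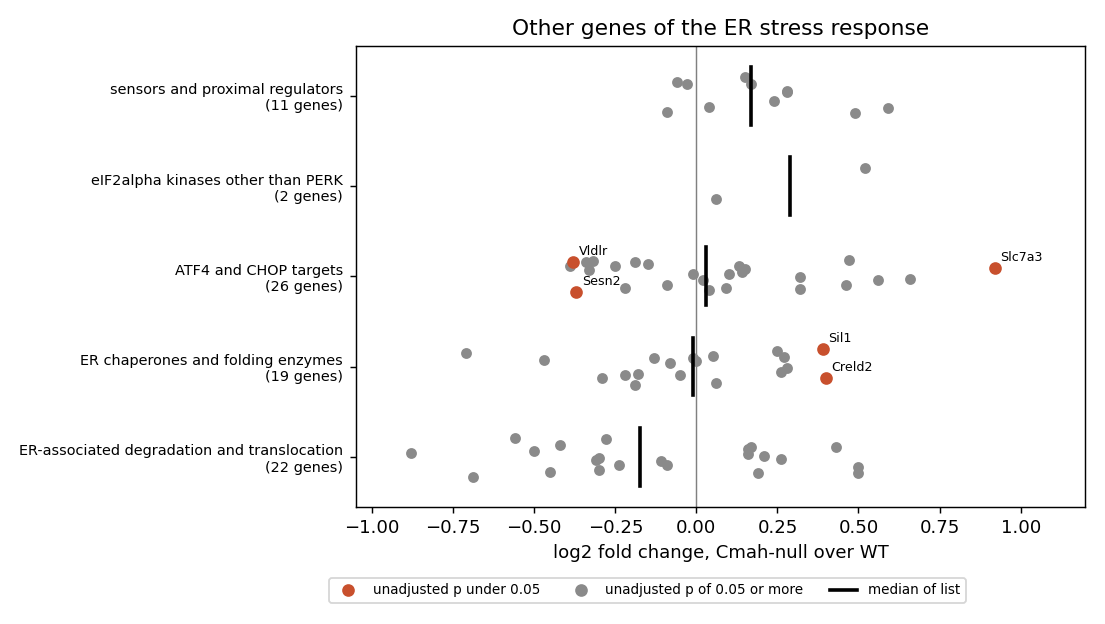
Log2 fold change of *Cmah*-null over WT (horizontal axis) for the 80 detected genes of the 5 lists (rows), 1 point per gene, with the median of each list as a black bar and genes with an unadjusted p under 0.05 in red. The points lie on both sides of 0 in all lists but that of the kinases, which has 2 genes, and *Slc7a3* at 0.92 is the point furthest to the right.

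Likeness of pattern was measured for *Herpud1* ILMN_2790246, the member probe with the smallest p, as the root mean square difference between log2 signals centred on their own mean over the 6 arrays. Among the 12410 probes detected on the 6 arrays, those most like it were probes of 3110043J09Rik (0.03), *Arhgef18* (0.04) and 5330417C22Rik (0.05). The second *Herpud1* probe differed by 0.18 by this measure. The genes above were picked as the nearest among probes of other genes, so a comparison with them does not show whether the *Herpud1* probes disagree.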

How the data were processed

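The authors labelled total RNA of 3 WT and 3 *Cmah*-null cochlear samples and hybridized it to Illumina MouseRef-8 v2 arrays. The deposited raw table gives for each probe an intensity (average bead signal, not normalized) with its standard error over beads, a detection p-value and how many beads were read. In the deposited normalized table the log2 values matched a quantile normalization of the raw log2 signals to within 5e-07. Its headers name the second group "old", matched to *Cmah*-null samples by elimination and number. Its 9 columns of means, fold changes and LPE statistics and 12 repeated columns were not used.

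The log2 values were compared with limma 3.58.1 in R 4.3.3 (lmFit, eBayes, two-sided), adjusted by Benjamini-Hochberg over 25697 probes, and checked on simulated arrays. Probes were also counted at 1.5-fold with an unadjusted p under 0.05. The members and lists were chosen with earlier results of these data known. Named were all member probes and, from each list, the genes past 1.5-fold with p and the 2 largest rises and falls among detected genes, with others named after their values were seen. The marker lists covered hair cell, cochlear support, neuron, skeletal muscle, brown fat, fat, bone, cartilage, plasma and B cell, blood and marrow, and epidermis. The alternatives were neqc (offset 16), scaling to the same median, leaving out probes seen on fewer than 3 arrays, blocks for replicate number and number of beads, averaging *Cmah*-null replicates 1 and 2, a variance prior with trend and robust, another probe per gene, and leaving out each array. Python 3.11.15 and matplotlib 3.10.9 made the figures.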

Additional observations from a re-analysis of the deposited data

How the results depend on the processing

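With 3 arrays per group the intervals are wide, and a true change within them cannot be told from none. No member probe had an adjusted p under 0.05 in limma in any alternative, the smallest being 0.0961. Of the 9 detected probes, those of *Xbp1*, *Trib3*, *Herpud1* and *Chac1* kept a positive log2 fold change in all 13 alternatives. Scaling to the same median turned *Atf4* to 0.05 and 0.42 and *Ddit3* to 0.07 and 0.16, and the block for the number of beads turned *Atf4* ILMN_2642681 to 0.04. When an array was left out, *Atf4* ranged from -0.60 to 0.07 (ILMN_1223734) and from -0.31 to 0.03 (ILMN_2642681), and *Ddit3* from -0.49 to 0.03 (ILMN_2652909) and from -0.30 to 0.01 (ILMN_2927373), positive without *Cmah*-null replicate 3 except for *Atf4* ILMN_2642681, which was positive without WT replicate 3.

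The number of member probes higher at 1.5-fold with p was 0, and became 4 with median scaling, 1 with the bead block (3.33% of all probes then) and ranged from 0 to 1 over the fits that left out an array (1 without WT replicate 3, *Herpud1* ILMN_2790246, where 2.00% of all probes were called). The number lower stayed at 0. The number of pathway genes higher, 1, was 20 with median scaling (9.37% of all probes), 7 with the bead block (3.33%), 0 with neqc (3.05%), 0 under the replicate block (1.56%), 0 with *Cmah*-null replicates 1 and 2 averaged (1.44%), and from 0 to 1 over the fits that left out an array, where without *Cmah*-null replicate 3 the single gene was *Eif2ak2* (1.61%). The number lower, 0, became 1 with neqc (*Sesn2*, 2.72% of all probes), 1 with the bead block (*Srp54*, 3.40%) and ranged from 0 to 2 over those fits, with *Derl2* and *Sec11c* without WT replicate 1 (1.78%) and *Atf5* without *Cmah*-null replicate 3 (1.82%). These shares are over all probes, undetected ones included, and so are not a like background for detected genes. The cause of these moves was not tested. No pairing by replicate number was seen, as deviations of same-numbered arrays correlated at 0.02, -0.17 and 0.01 and 0 of 3 WT arrays correlated best with their own number. This check cannot exclude a pairing, since *Cmah*-null replicate 3 stood apart from replicates 1 and 2 and weighs heavily in the deviations. With the replicate block 0 member probes were called.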

Other observations

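Without *Cmah*-null replicate 3, *Atf5*, a transcription factor downstream of eIF2alpha phosphorylation, had a log2 fold change of -0.80 with an unadjusted p of 0.00213 in limma, and it was picked after its value was seen. Its log2 signals were 11.23, 11.35 and 11.67 in WT and 10.65, 10.58 and 12.58 in *Cmah*-null mice, so that *Cmah*-null replicates 1 and 2 were the lowest of the 6 arrays and replicate 3 the highest. With all arrays the log2 fold change was -0.15. *Eif2ak2* behaved in the opposite manner on the same arrays, with an unadjusted p of 0.00166 in limma without *Cmah*-null replicate 3. In that fit 13.0% of all probes had an unadjusted p under 0.05, and its *Cmah*-null arrays, replicates 1 and 2, had log2 differences from each other with an SD of 0.13 only, so that their independence is not established.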
